A study of Mus musculus with 12 samples.

Results

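The p53 target genes described here are 9 genes, found among the 46078 genes of the count table by matching Ensembl identifiers to Gencode mouse symbols: Cdkn1a, Mdm2, Ccng1, Trp53inp1, Phlda3, Eda2r, Zmat3, Sesn1 and Bax. All 9 were found. Their RNA was measured in follicular (FO) B cells, which recirculate through the lymphoid follicles, and in marginal zone (MZ) B cells, an innate-like population at the rim of the splenic white pulp. The mice were C57BL/6, aged 8 to 12 weeks. CKO mice carried VAVcre together with a conditional Zbtb24 allele (VAVcre-Zbtb24). Control mice carried VAVcre and are called WT in the genotype label. The Vav promoter drives Cre in blood-forming cells generally, so deletion was not restricted to B cells, and both genotypes carried the Cre transgene. The groups were FO CKO, FO Control, MZ CKO and MZ Control, with 3 libraries each, and the labels' mouse numbers place an FO and an MZ library with each of 6 mice. No label states that both libraries of a number share a mouse, and this is inferred from the numbers.

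p53 is a transcription factor that is kept low in unstressed cells and accumulates after DNA damage and other stress. It then switches on genes that stop the cell cycle, repair damage or start cell death, and among them is Mdm2, which encodes the ubiquitin ligase that marks p53 for degradation. In lymphocytes p53 is known for removing cells with broken DNA during development and during the rapid divisions of an immune response. Zbtb24 encodes a zinc finger DNA-binding protein. Mutations of its human counterpart cause one type of ICF syndrome, an immunodeficiency with unstable centromeric regions.

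p53 binds DNA as a tetramer at a pair of decamers, and the windows just before the start sites of Cdkn1a and Ccng1 hold close matches to the joined pair. They are shown because these genes differ widely in level and in their behaviour between the groups described below. Sequences are from RefSeq (GRCm38.p6), 5′ to 3′ on the gene's strand, and capitals mark the bases of the 20-base site that fit the p53 consensus. Cdkn1a is shown from chr17:29090888-29090978 (plus strand), where the site lies 51 to 32 bases before the distal of its RefSeq starts, and Ccng1 from chr11:40755422-40755521 (minus strand), where it lies 195 to 176 bases before the start.
Cdkn1a: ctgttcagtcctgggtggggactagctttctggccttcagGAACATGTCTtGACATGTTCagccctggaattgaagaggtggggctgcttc
Ccng1: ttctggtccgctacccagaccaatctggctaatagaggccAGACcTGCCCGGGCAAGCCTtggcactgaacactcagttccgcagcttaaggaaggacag
In each, 19 of 20 bases fit. The odd base opens the later decamer in Cdkn1a and lies at the centre of the earlier decamer in Ccng1. The best match in the Bax window (chr7:45467090-45467109, minus strand) had 3 mismatches, and that in the Mdm2 window (chr10:117710925-117710944, minus strand) had 5.
Bax: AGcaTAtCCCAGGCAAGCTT
Mdm2: GAACTTGCCTAGcgAccaTT
Of 32851 RefSeq windows of 250 bases before a start, 0.0761% held a match with at most 1 mismatch, and 5.32% one with at most 3. Of the 9 windows of the p53 target genes, 2 held a match with at most 1 mismatch and 4 one with at most 3. Bases outside these windows, such as those after a start, were not searched, so a poor match here does not mean that a gene lacks a site. The p53 consensus reads alike on both strands, so each window was searched once. The motif CATGNNNNNNCATG, which overlaps the consensus core and also reads alike on both strands, stood in 0.49% of windows and in 1 of the 9 windows of the p53 target genes, that of Cdkn1a. Windows were available for 7 of the 9 genes, not for Trp53inp1 and Zmat3. A match is a description of the letters only.

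The p53 target genes spanned a wide range of levels in these B cells. Per kilobase of exon, Sesn1, which encodes a stress-induced inhibitor of the growth kinase complex mTORC1, averaged 38.2 CPM per kb over 12 libraries (range 32.3 to 42.9). Bax, the pore-forming killer protein of mitochondria, averaged 35.9 CPM per kb (31.8 to 39.6). Ccng1, whose product cyclin G1 acts with a phosphatase on Mdm2, averaged 31.7 CPM per kb (25 to 39.2). The ranges of these genes overlapped, as did that of Trp53inp1, a stress protein of the nucleus that acts in cell death and autophagy, at 30.8 CPM per kb (22.9 to 35.9). Mdm2 followed at 19.2 CPM per kb (17.1 to 21.7), below all of them in range. Mdm2, the lowest of these 5, still stood above 91.6% of the 32827 genes with a count and a length.

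The remaining members were low. Zmat3, which encodes an RNA-binding zinc finger protein that acts in splicing, averaged 0.724 CPM per kb (0.518 to 0.911). Phlda3, which encodes a membrane-binding protein that holds back the survival kinase Akt, averaged 0.346 CPM per kb (0.135 to 0.621). Its range overlapped that of Zmat3. Cdkn1a, which encodes p21, the inhibitor of cyclin-dependent kinases that carries out cell cycle arrest by p53, averaged 0.122 CPM per kb (0.0508 to 0.236), and its range overlapped that of Phlda3. Eda2r, which encodes a receptor for ectodysplasin A2, was close to the limit of detection with 12 counts in all. It had 3, 1 and 0 counts in FO CKO, 0, 2 and 0 in FO Control, 0, 1 and 1 in MZ CKO and 0, 4 and 0 in MZ Control libraries, where 3 counts are worth 0.067 to 0.0846 CPM. Eda2r was therefore not detectable in 6 of the 12 libraries at this depth, and it did not pass the filter on low counts in any comparison.

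**Figure D1:**
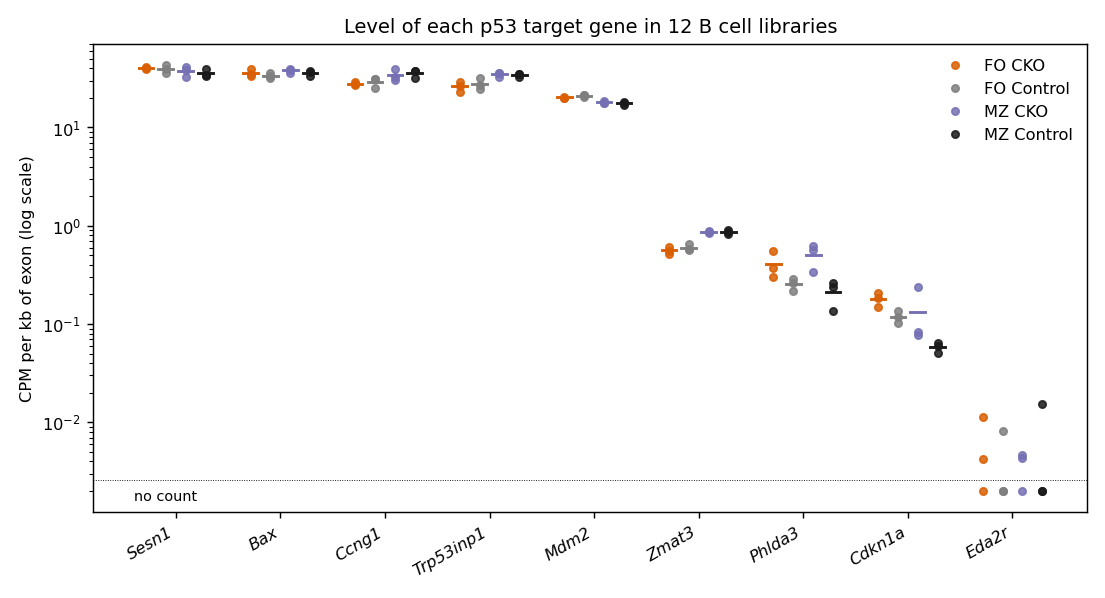
Level of each p53 target gene in CPM per kb of exon (log scale), with 1 point per library and a bar at the mean of 3 libraries. Sesn1, Bax, Ccng1, Trp53inp1 and Mdm2 lie between 17.1 and 42.9, far above Zmat3, Phlda3 and Cdkn1a, and Eda2r points without a count are drawn under the dotted line.

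Depth was 36340116 to 44629250 gene counts per library. Reads of the targeted gene Zbtb24 remained in all CKO libraries, at 48.3, 46.9 and 50 CPM in FO CKO against 62.5, 60.8 and 60.8 CPM in FO Control, and at 46.4, 41.8 and 41.9 CPM in MZ CKO against 49.1, 53 and 54.4 CPM in MZ Control. The groups did not overlap. Neither log2 fold change passed, at -0.34 for FO (edgeR adjusted p = 0.1943) and -0.27 for MZ B cells (adjusted p = 1). Counts per gene do not show which exons the reads came from. Summed CPM of the 6 B cell markers was 6918 to 9055 in all 12 libraries. The 6 MZ B cell markers summed to 4752 to 6224 CPM in MZ CKO and 5482 to 6200 CPM in MZ Control libraries, against 1369 to 1639 CPM in FO CKO and 1124 to 1509 CPM in FO Control libraries, so the labelled cell types carried their markers.

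The comparison of CKO with Control asks whether the p53 target genes differ in B cells after Cre acts on Zbtb24 in the blood lineage. In FO B cells 0 of the 8 tested members passed, where 16 of 17777 genes (0.09%) did, or 25 genes (0.141%) with the replicate block. Between genotypes this block matches CKO and Control libraries of the same replicate number, which are different mice. At an unadjusted p under 0.05 there were also 0 members, against 4.03% of all genes. In MZ B cells 0 of 8 members passed, where 14 of 17658 genes (0.0793%) did, and 2 members, Phlda3 and Cdkn1a, had an unadjusted p under 0.05, against 2.9% of all genes. The limma-voom test also called 0 of these 8 members in each cell type. DESeq2 called 0 as well, but it gave no adjusted p for Cdkn1a and Phlda3, so neither could be called with it. The median log2 fold change of the 8 members was -0.01 in FO and 0.06 in MZ B cells, beside 0.01 and 0.00 over all genes tested.

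Cdkn1a and Phlda3, both at under 1 CPM, were the members with the widest differences. Cdkn1a (ENSMUSG00000023067, chromosome 17, 29090976 to 29100727, mm10) had 0.648, 0.73 and 0.524 CPM in FO CKO libraries, against 0.423, 0.478 and 0.366 CPM in FO Control libraries. In MZ B cells it had 0.298, 0.84 and 0.276 CPM in CKO, against 0.21, 0.18 and 0.226 CPM in Control libraries. Every CKO library lay above every Control library in both cell types, and a single MZ CKO library, replicate 2, held most of the MZ difference. These levels rest on few reads, 12, 33 and 10 counts in the MZ CKO libraries and 8 in each MZ Control library. The filter on low counts asks for enough counts in as many libraries as a group holds, and 8 counts were too few. Cdkn1a was therefore tested in MZ B cells only through its CKO libraries. Its MZ difference is not independent of the filter, and no support is drawn from it. The log2 fold change was 0.59 in FO (SE 0.29, 95% interval -0.06 to 1.24, unadjusted p = 0.07088, edgeR adjusted p = 0.9995). In MZ it was 1.20 (SE 0.51, 95% interval 0.07 to 2.32, unadjusted p = 0.03875, edgeR adjusted p = 1), and 0.49 without MZ CKO replicate 2.

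Phlda3 (ENSMUSG00000041801, chromosome 1, 135766119 to 135769136) had 0.581, 0.856 and 0.472 CPM in FO CKO libraries, against 0.448, 0.407 and 0.341 CPM in FO Control libraries. Its MZ levels were 0.968, 0.891 and 0.525 CPM in CKO, against 0.21, 0.406 and 0.367 CPM in Control libraries. Again every CKO library lay above every Control library in both cell types, and the gap between the nearest libraries was small in FO B cells. The counts behind these levels were 39, 35 and 19 in MZ CKO and 8, 18 and 13 in MZ Control libraries. For Phlda3 the log2 fold change was 0.68 in FO (SE 0.33, 95% interval -0.05 to 1.40, unadjusted p = 0.06549, edgeR adjusted p = 0.9995). In MZ it was 1.27 (SE 0.38, 95% interval 0.43 to 2.11, unadjusted p = 0.00677, edgeR adjusted p = 1), and the adjusted p over the alternatives ranged from 0.2265 to 1. The FO value was 0.40 without FO CKO replicate 2.

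The absence of overlap was read against all genes. Groups did not overlap for 2 of 8 members in FO, where this held for 9.32% of all genes tested, and for the same 2 of 8 in MZ, where it held for 7.63%. CKO lay above Control in every library of both cell types for these 2 members and for 104 of 17177 genes (0.605%). An exact permutation test of 3 libraries against 3 gave 0.1 for each, the smallest p it allows. Cdkn1a passed the low-count filter in MZ only through its CKO libraries, so its part in these MZ counts is not independent of the filter. With the FO and MZ counts of each mouse summed, an alternative chosen after the data were seen, the log2 fold change was 0.83 for Cdkn1a (95% interval 0.15 to 1.50, unadjusted p = 0.02212) and 0.97 for Phlda3 (0.37 to 1.58, unadjusted p = 0.005559). Neither passed (edgeR adjusted p = 0.9995 for both), where 16 of 19579 genes (0.0817%) did. Without CKO replicate 2 these summed values were 0.49 for Cdkn1a and 0.79 for Phlda3. The other 6 tested members lay near 0 when summed, at -0.01 for Mdm2, -0.06 for Ccng1, -0.03 for Trp53inp1, -0.04 for Zmat3, 0.06 for Sesn1 and 0.10 for Bax.

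CKO replicate 2, which is mouse 1514, also had the highest sums of cell cycle genes and of neutrophil markers in both cell types. Control replicate 2, mouse 1507, had the highest of the Control libraries in both sums. The 14 cell cycle genes, chosen as those that fall through the DREAM complex when p21 is high, summed to 125, 431 and 101 CPM in FO CKO, against 172, 225 and 171 CPM in FO Control libraries. In MZ B cells they summed to 255, 580 and 190 CPM in CKO, against 199, 331 and 171 CPM in Control libraries. Both libraries of mouse 1514 were thus the highest of their cell type, while the other CKO libraries lay below the Control libraries in FO and within their range in MZ B cells. In the genotype comparison 0 of the 14 cell cycle genes passed (with the replicate block 0 in FO and 1 in MZ B cells), with a median log2 fold change of 0.22 in FO and 0.54 in MZ. Of the 14 genes 13 had a positive value in FO and 14 in MZ. The smallest p in FO were those of Ccne2 at 0.37 and Bub1 at 0.77, and in MZ those of Cdc25c at 0.68 and E2f1 at 0.25 (edgeR adjusted p = 0.9995 for each in FO and 1 in MZ).

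The 7 neutrophil markers, none at 0, summed to 117, 386 and 174 CPM in FO CKO, against 72.8, 186 and 117 CPM in FO Control libraries. In MZ B cells they summed to 67.8, 235 and 98.7 CPM in CKO, against 44.9, 136 and 57.5 CPM in Control libraries. Replicate 2 was thus the highest of each group. All 7 had a positive log2 fold change in both cell types, and 0 passed. With the replicate block 2 of the 7 neutrophil markers passed in FO and 4 in MZ, where 25 of 17777 and 57 of 17658 genes did. These block calls rest on a matching of different mice that the labels do not give. The log2 fold change was positive for 0 of 7 T cell markers in FO and 2 in MZ, and for 0 of 4 dendritic cell markers in each. It was positive for 6 of 7 macrophage and monocyte markers in FO and 3 in MZ. None of these passed, other than 1 dendritic cell marker, lower in MZ CKO with the replicate block. The 4 B-1 cell markers summed to 83.6 to 85.6 CPM in FO CKO against 72.3 to 80 CPM in FO Control libraries. In MZ B cells they summed to 87.9 to 107 CPM in CKO against 71.4 to 78.4 CPM in Control libraries. Of these 4, 2 were positive in FO and 3 in MZ, and 0 passed, or 1 in each with the block. Erythroid and platelet markers also summed highest in mouse 1514, at 210 CPM in FO and 181 CPM in MZ. In bulk RNA, more cells of a type and more RNA per cell cannot be told apart. The part of these cells in the Cdkn1a and Phlda3 values was not tested. Cdkn1a in FO B cells had a log2 fold change of 0.47 without FO CKO replicate 2, and Phlda3 in MZ B cells 1.18 without MZ CKO replicate 2.

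**Figure D2:**
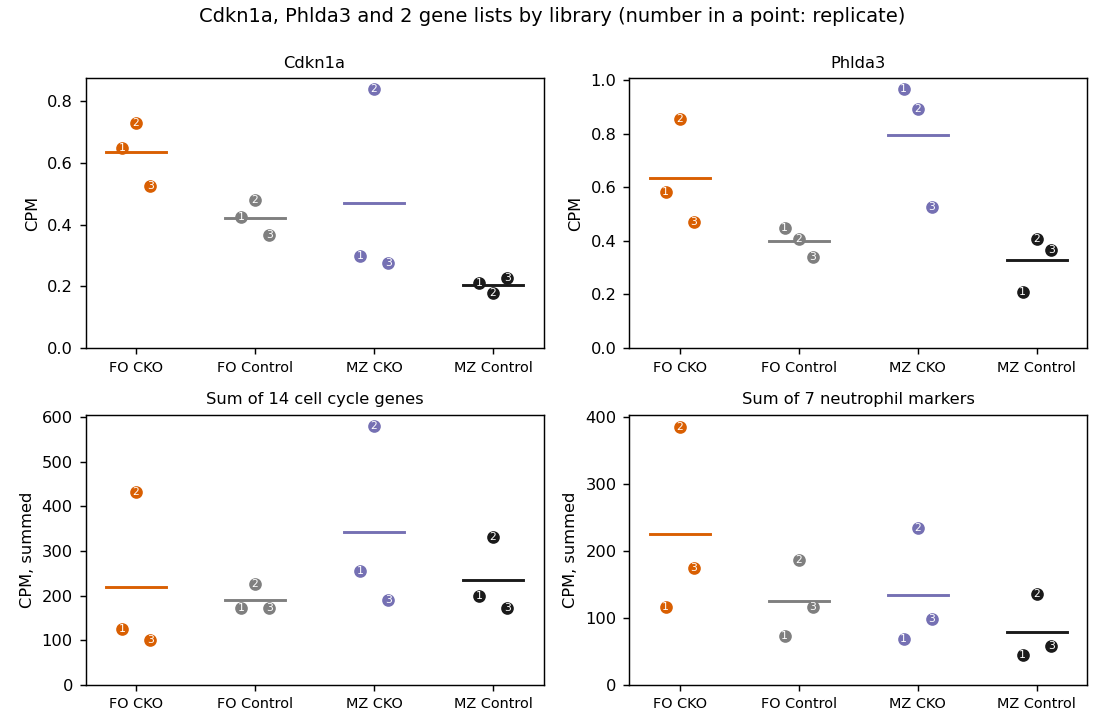
CPM of Cdkn1a and Phlda3, and summed CPM of 14 cell cycle genes and 7 neutrophil markers, with 1 point per library numbered by replicate and a bar at the mean of 3 libraries. Cdkn1a and Phlda3 are higher in each CKO library than in any Control library of the same cell type, and CKO replicate 2 tops both sums.

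The other 6 tested members differed little between genotypes, with intervals narrower than those of Cdkn1a and Phlda3 in the same cell type. Mdm2 (ENSMUSG00000020184, chromosome 10, 117688875 to 117710758) had 105, 101 and 102 CPM in FO CKO, against 108, 104 and 110 CPM in FO Control libraries. Its MZ levels were 94.5, 89.7 and 91.2 CPM in CKO, against 87, 91.3 and 89.4 CPM in Control libraries. The libraries of the genotypes overlapped in both cell types. The log2 fold change of Mdm2 was -0.06 in FO (95% interval -0.19 to 0.06) and 0.04 in MZ (-0.11 to 0.19).

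Bax (ENSMUSG00000003873, chromosome 7, 45461697 to 45466898) had 52.9, 54.9 and 62 CPM in FO CKO, against 56.2, 52.9 and 50.1 CPM in FO Control libraries. Bax in MZ B cells had 56.3, 62.5 and 60.9 CPM in CKO, against 59, 52.8 and 58 CPM in Control libraries. The genotypes overlapped in both, with log2 fold changes of 0.10 (95% interval -0.08 to 0.27) in FO and 0.08 (-0.09 to 0.25) in MZ. Sesn1 (ENSMUSG00000038332, chromosome 10, 41809935 to 41908424) lies 0.344 Mb from Zbtb24, which spans 41450383 to 41465574 on the same chromosome. Its levels were 160, 157 and 166 CPM in FO CKO against 142, 171 and 156 CPM in FO Control, and 165, 129 and 153 CPM in MZ CKO against 133, 156 and 135 CPM in MZ Control libraries. The genotypes overlapped, with log2 fold changes of 0.04 (95% interval -0.12 to 0.21) in FO and 0.07 (-0.15 to 0.30) in MZ.

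The 3 other tested members, Ccng1, Trp53inp1 and Zmat3, also lay near 0 for CKO over Control. Their log2 fold changes in FO B cells were -0.07 for Ccng1, -0.09 for Trp53inp1 and -0.09 for Zmat3. Those in MZ B cells were -0.06 for Ccng1, 0.01 for Trp53inp1 and -0.01 for Zmat3. Their libraries overlapped between the genotypes. The widest interval among them was that of Zmat3 in FO B cells, -0.39 to 0.22.

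The difference of the CKO effect between the cell types, MZ minus FO, was tested in all 12 libraries. It passed for 0 of 8 members and 0 of 18546 genes (0%), or 4 genes (0.0216%) with the mouse as a block, none of them a member. At an unadjusted p under 0.05 there were 238 genes (1.28%) and 0 members. The difference was 0.61 for Cdkn1a (95% interval -0.63 to 1.86), 0.60 for Phlda3 (-0.46 to 1.66) and 0.11 for Mdm2 (-0.05 to 0.27). For the others it was 0.11 for Trp53inp1, 0.09 for Zmat3, 0.03 for Sesn1, 0.00 for Ccng1 and -0.01 for Bax. For Cdkn1a it was -0.10 without MZ CKO replicate 2 and 0.02 without both libraries of mouse 1514. None of the tested genes upstream of p53, further p53 targets and cell cycle genes passed. The smallest p in each list were those of Trp53 (0.18) and Ppm1d (0.11), of Foxo3 (0.22) and Rps27l (-0.27), and of Ccne1 (0.16) and Ccnb2 (0.50). Mdm4 had -0.11.

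**Figure D3:**
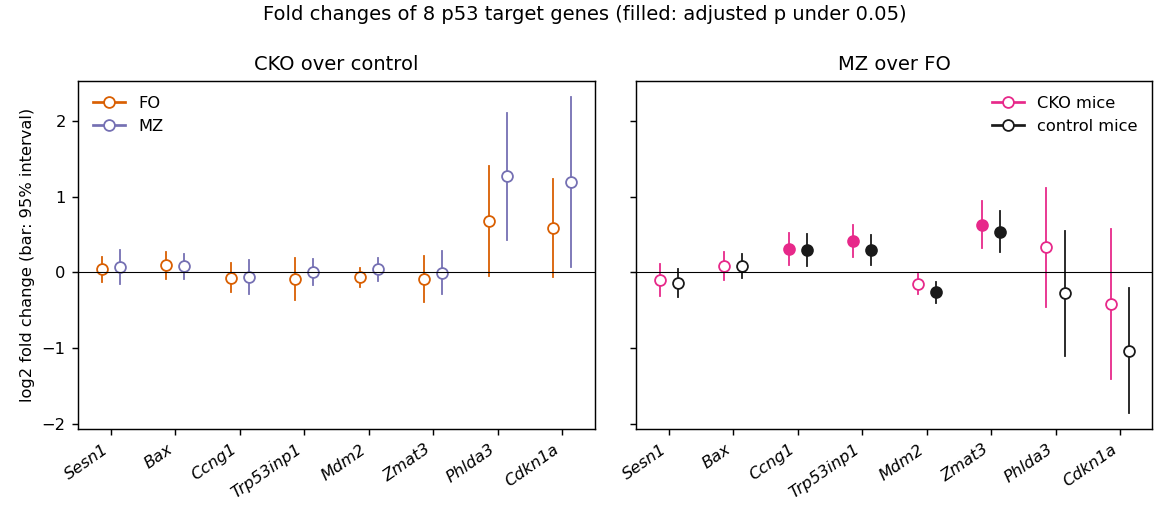
Log2 fold changes of 8 p53 target genes with 95% intervals, CKO over Control on the left and MZ over FO on the right. Filled points passed at an edgeR adjusted p under 0.05. No CKO-over-Control point is filled, and Zmat3, Trp53inp1 and Ccng1 are filled above 0 in both MZ-over-FO series.

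MZ and FO B cells differed in several p53 target genes, whichever the genotype. In CKO mice 3 of 8 members were higher in MZ (Zmat3, Trp53inp1 and Ccng1) and 0 lower, where 18.3% of 17712 genes passed, 10.5% higher and 7.78% lower. In Control mice the same 3 were higher in MZ and Mdm2 was lower, 4 of 8 members, where 27.9% of 17830 genes passed, 14.9% higher and 13% lower. With the mouse as a block 35.8% of genes passed in CKO mice, with the same 3 members, and 43.8% in Control mice, with 6 members. With 8 members each call is a large share, and nothing particular to these genes is read from the counts. The median log2 fold change of the 8 members was 0.20 in CKO and -0.03 in Control mice, beside -0.01 and 0.01 over all genes tested.

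Zmat3 (ENSMUSG00000027663, chromosome 3, 32334792 to 32366014) had 10.2, 9.57 and 9.92 CPM in MZ CKO, against 6.35, 5.92 and 7.02 CPM in FO CKO libraries. In Control mice it had 9.84, 10.4 and 9.53 CPM in MZ, against 6.59, 6.53 and 7.41 CPM in FO libraries. Every MZ library lay above every FO library, which held for 36.4% of genes in either direction in CKO and 42.3% in Control mice. The log2 fold change of MZ over FO was 0.63 in CKO mice (SE 0.14, 95% interval 0.32 to 0.94, edgeR adjusted p = 0.01242) and 0.54 in Control mice (SE 0.12, 0.27 to 0.81, adjusted p = 0.006978). The CKO call was lost without FO CKO replicate 1 (adjusted p = 0.05991).

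Trp53inp1 (ENSMUSG00000028211, chromosome 4, 11156431 to 11174379) had 232, 210 and 231 CPM in MZ CKO, against 148, 187 and 173 CPM in FO CKO libraries. In Control mice Trp53inp1 had 213, 226 and 228 CPM in MZ, against 159, 177 and 207 CPM in FO libraries. MZ and FO did not overlap in either genotype, with FO Control replicate 3 close to the MZ libraries. Trp53inp1 differed by a log2 fold change of 0.41 in CKO (SE 0.09, 95% interval 0.20 to 0.63, edgeR adjusted p = 0.01516) and 0.30 in Control mice (SE 0.09, 0.10 to 0.50, adjusted p = 0.0312). The call was lost in 3 of 7 fits that left out libraries in CKO mice (MZ CKO replicate 1 or 3, or FO CKO replicate 1) and in 5 of 6 in Control mice, all but that without FO Control replicate 3. The block by mouse lowered the adjusted p to 0.0002214 in CKO and 2.097e-05 in Control mice.

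Ccng1 (ENSMUSG00000020326, chromosome 11, 40748552 to 40755311), the gene with the site shown above, had 138, 108 and 114 CPM in MZ CKO, against 96.2, 94.4 and 102 CPM in FO CKO libraries. In Control mice Ccng1 had 113, 131 and 133 CPM in MZ, against 87.9, 109 and 109 CPM in FO libraries. MZ lay above FO in every library of each genotype, by a narrow margin between the nearest libraries. For Ccng1 the log2 fold change was 0.31 in CKO (SE 0.09, 95% interval 0.10 to 0.52, edgeR adjusted p = 0.04758) and 0.30 in Control mice (SE 0.10, 0.08 to 0.51, adjusted p = 0.04343). These calls were near the threshold. They were lost in 3 of 7 other settings in each genotype, with adjusted p up to 0.07356 in CKO and 0.05987 in Control mice, in 6 of 7 fits that left out libraries in CKO mice (all but that without MZ CKO replicate 2), and in 4 of 6 in Control mice (without MZ Control replicate 2 or 3, or FO Control replicate 1 or 3). With the block by mouse the adjusted p was 0.001313 in CKO and 1.029e-05 in Control mice.

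Mdm2, the ligase that acts on p53, was the member called lower in MZ B cells of Control mice. In the values given above, MZ libraries lay below FO libraries throughout both genotypes. The log2 fold change of MZ over FO was -0.15 in CKO (SE 0.06, 95% interval -0.28 to -0.02, edgeR adjusted p = 0.1176) and -0.26 in Control mice (SE 0.06, -0.40 to -0.13, adjusted p = 0.007579). The value in CKO mice did not pass with the block by mouse (adjusted p = 0.0649) and passed in the fit on all 12 libraries (0.04504), and the test of the difference between the genotypes did not (0.11, given above). Cdkn1a in Control mice had a log2 fold change of -1.04 (SE 0.38, 95% interval -1.86 to -0.21, edgeR adjusted p = 0.06044), which passed with the block by mouse (0.0402). There Cdkn1a passed the low-count filter only through its FO libraries, so this value is not independent of the filter. Sesn1 in Control mice had -0.14 (SE 0.09, adjusted p = 0.2541), which also passed with the block (0.04607). In CKO mice Cdkn1a had -0.42 (95% interval -1.41 to 0.58, edgeR adjusted p = 0.5837), and -1.13 without MZ CKO replicate 2. Sesn1 there had -0.10 (adjusted p = 0.506). Bax had 0.09 in each genotype (adjusted p = 0.5205 in CKO and 0.3949 in Control mice), and Phlda3 had 0.33 in CKO (0.5742) and -0.27 in Control mice (0.6532).

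All 6 mice were then set side by side within each mouse, a fit chosen after the data were seen. With the mouse as a block 50.4% of 18546 genes passed, 25.5% higher and 25% lower in MZ, and 6 of 8 members did, 3 higher and 3 lower in MZ. Zmat3, Trp53inp1 and Ccng1 were higher by 0.58, 0.36 and 0.30 on the log2 scale, with edgeR adjusted p of 3.307e-07, 5.388e-06 and 2.533e-06. Mdm2, Sesn1 and Cdkn1a were lower, at -0.21, -0.13 and -0.72, with adjusted p of 9.208e-05, 0.01665 and 0.02324. Bax at 0.09 (adjusted p = 0.1034) and Phlda3 at 0.08 (0.8006) did not pass. Zmat3, Trp53inp1 and Ccng1 were higher in MZ in 6 of 6 mice and Mdm2 in 0 of 6, each with an exact two-sided sign-flip p of 0.03125, the smallest that 6 mice allow. The share of all genes with the same direction in 6 of 6 mice was not computed. Nothing particular to these genes is therefore read from these counts. Cdkn1a and Sesn1 were higher in MZ in 1 of 6 mice (exact p = 0.0625 each), and in Cdkn1a that mouse was 1514. The Cdkn1a call was lost in 4 of 6 fits that left out a mouse, those without Control replicate 1 or 2 or CKO replicate 1 or 3, with adjusted p up to 0.08255. The Sesn1 call was lost in 2 of 6, those without Control replicate 3 or CKO replicate 2, with adjusted p up to 0.07861.

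Markers of several other cell types moved along with these contrasts. The 7 T cell markers, none at 0, summed to 97.1 to 156 CPM in MZ CKO against 161 to 230 CPM in FO CKO libraries. In Control mice they summed to 113 to 187 CPM in MZ against 231 to 263 CPM in FO libraries. Of these markers 1 of 7 was called lower in CKO and 5 of 7 in Control mice, where 7.78% and 13% of all genes were. With the block by mouse 7 and 5 were lower, where 2937 of 17712 genes in CKO and 3806 of 17830 in Control mice were lower. The 7 neutrophil markers had a median log2 fold change of MZ over FO of -0.87 in CKO and -0.63 in Control mice, with 0 called. With the block by mouse 7 of these 7 were lower in CKO and 4 in Control mice, beside the same counts of all genes. In the fit over 6 mice Sesn1 and Cdkn1a passed, and 25% of all genes were lower in MZ. So were all 7 T cell, all 7 neutrophil and all 3 NK cell markers, and 4 of 5 tested erythroid and platelet markers. Of the dendritic cell markers 3 of 4 were lower. Of the macrophage and monocyte markers 3 of 7 were lower, with a median log2 fold change of -0.04. The part of these cells in the values of Mdm2, Sesn1 and Cdkn1a was not tested.

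**Figure D4:**
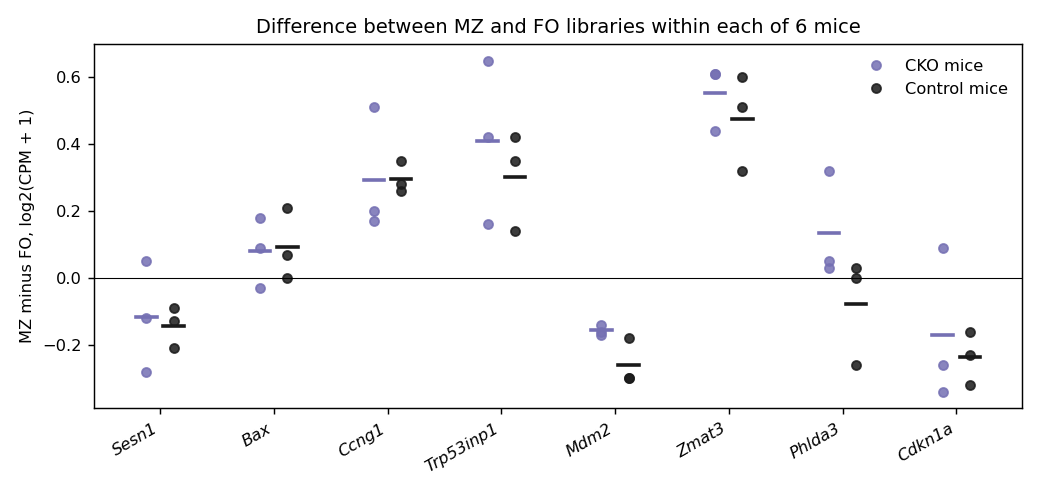
Difference between the MZ and FO library of each of 6 mice in log2(CPM + 1), for 8 p53 target genes, with CKO mice left of Control mice and a bar at the mean of 3 mice. Zmat3, Trp53inp1 and Ccng1 lie above 0 in all 6 mice and Mdm2 below 0 in all 6.

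The genes that act on p53 and other known p53 targets gave the setting. Of 14 genes upstream of p53, 11 were tested, and 0 passed between genotypes in either cell type. The smallest p in FO were those of Ppm1d (-0.09) and Usp7 (-0.06), and in MZ those of Trp53 and Chek1 (0.52). Trp53 itself, which encodes p53, had 100, 106 and 102 CPM in FO CKO against 111, 105 and 91.7 CPM in FO Control, and 121, 145 and 119 CPM in MZ CKO against 117, 109 and 113 CPM in MZ Control libraries. The genotypes overlapped in FO and did not in MZ B cells, as held for 7.63% of all genes in MZ. The highest MZ library was CKO replicate 2, mouse 1514. The log2 fold change of Trp53 in MZ was 0.18 (95% interval -0.01 to 0.37, edgeR adjusted p = 1), against 0.00 in FO. Mdm4, the partner of Mdm2 that masks p53, had 0.00 in FO and -0.11 in MZ (adjusted p = 0.9995 and 1).

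Of 33 further p53 targets, 31 were tested, and 0 passed between genotypes. The lowest unadjusted p in FO B cells were those of Pmaip1, which encodes the death-promoting protein Noxa, and Fas, which encodes a death receptor. Pmaip1 had 14.8, 11.3 and 11.3 CPM in FO CKO against 9.85, 6.74 and 9.85 CPM in FO Control libraries (log2 0.50, 95% interval 0.11 to 0.90, edgeR adjusted p = 0.9995). The libraries did not overlap, which held for 9.32% of all genes tested in FO. Fas had a log2 fold change of 0.39 (0.02 to 0.75, adjusted p = 0.9995). In MZ B cells the lowest were Aen, a nuclease gene, at 0.18 (0.02 to 0.34) and Pmaip1 at 0.48 (-0.03 to 0.99), both with an adjusted p of 1. The median log2 fold change of the 31 genes was -0.01 in FO and 0.01 in MZ, with 15 and 17 of them positive.

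Between MZ and FO, 5 of the 31 further targets were higher and 2 lower in CKO mice, and 8 were higher and 5 lower in Control mice, where 18.3% of all genes passed in CKO and 27.9% in Control mice. With the block by mouse the counts were 12 higher and 8 lower in CKO and 10 higher and 11 lower in Control mice, where 35.8% and 43.8% of all genes passed. Plk2, a polo-like kinase gene, had 2.26, 2.16 and 1.74 CPM in MZ CKO against 12.2, 8.94 and 15.1 CPM in FO CKO libraries, and 2.65, 2.1 and 1.35 CPM in MZ Control against 14.6, 10.2 and 10.2 CPM in FO Control libraries. All MZ libraries lay far below all FO libraries (log2 -2.55 and -2.51, edgeR adjusted p = 9.35e-05 in CKO and 7.521e-05 in Control mice). Sesn2, a relative of Sesn1, was higher in MZ, at 0.90 in CKO (adjusted p = 0.001408) and 0.78 in Control mice (6.173e-05), while Sesn1 did not pass in these comparisons. The other leading genes were Plk3 at 0.69 and Cd82 at 0.41 in CKO mice, and Ddit4 at 0.54 and Trp53i11 at -0.45 in Control mice.

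Upstream of p53, Chek2, a checkpoint kinase gene, was higher in MZ B cells, at 0.64 in CKO (edgeR adjusted p = 0.002093) and 0.57 in Control mice (0.001733). Ep300, which encodes an acetyltransferase that acts on p53, was lower at -0.34 in each (0.009943 and 0.00325). Trp53 was higher in MZ at 0.33 in CKO mice (adjusted p = 0.02419). In Control mice it had 0.14 (0.2126, and 0.04232 with the block by mouse). Chek1 at 0.61 and Ppm1d at -0.32 also passed in Control mice. Mdm4 had 0.08 in CKO and 0.18 in Control mice, where it passed with the block (0.01516). Of the 14 cell cycle genes E2f1 passed, at 1.01 in CKO and 0.86 in Control mice. With the block by mouse 11 of them were higher in CKO mice, and 5 were higher and 1 lower in Control mice, beside those same shares of 35.8% and 43.8% of all genes.

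**Figure D5:**
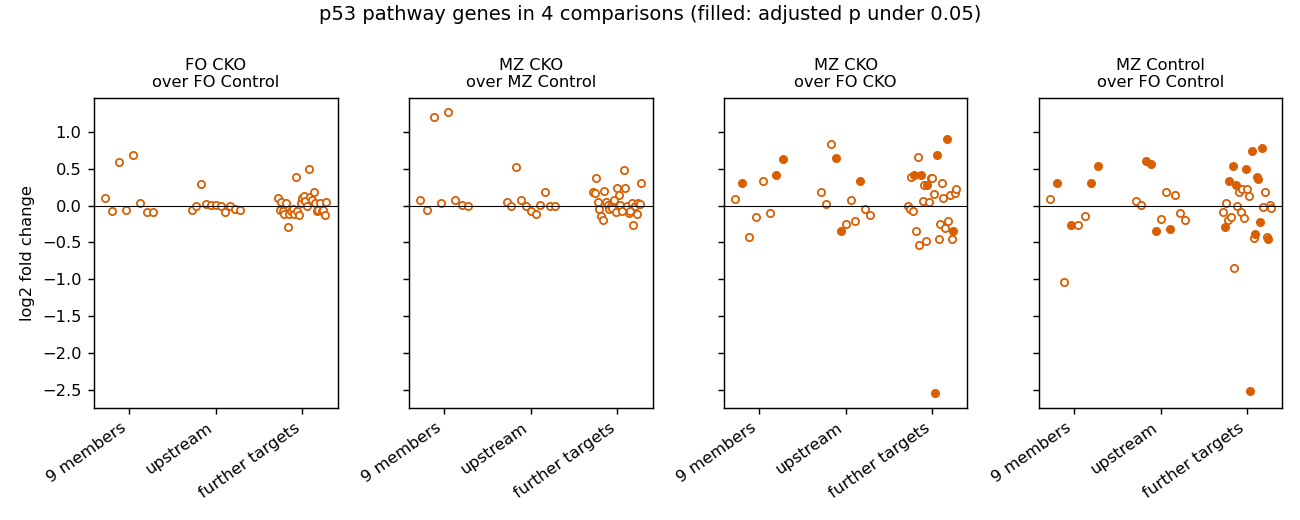
Log2 fold changes of the p53 target genes, of 11 tested genes upstream of p53 and of 31 tested further p53 targets in 4 comparisons, with 1 point per gene. Filled points passed at an edgeR adjusted p under 0.05. None is filled in the CKO-over-Control panels, and the lowest point in both MZ-over-FO panels is Plk2.

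Finally, the genes whose pattern over the 12 libraries was most like that of each member other than Eda2r, which had too few counts, were sought among 9567 genes with a mean of at least 5 CPM, by the root mean square difference of standardised log2(CPM + 1), where 0 is an identical pattern. Zmat3 was most like Ptpn14 (0.155), Slc46a3 (0.188) and Tmem154 (0.191). Mdm2 was most like Kctd10 (0.181), Acbd3 (0.187) and Map3k1 (0.189), and Trp53inp1 most like Cdk8 (0.182), Serpinb9 (0.202) and Grsf1 (0.237). Ccng1 came closest to Rtraf (0.269). The members without a called MZ and FO difference in the separate comparisons had weaker likenesses, with best values of 0.345 for Bax, 0.358 for Cdkn1a, 0.426 for Sesn1 and 0.451 for Phlda3. Between MZ and FO 18.3% of all genes passed in CKO and 27.9% in Control mice. A member with that difference therefore has many possible matches, and nothing particular to these genes is read from the likeness values.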

How the data were processed

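RNA was sequenced from FO and MZ B cells of mouse spleen, separated with a magnetic isolation kit, with libraries from the Illumina TruSeq RNA kit and 0.1 ug of total RNA, per the labels' protocols. The authors deposited raw counts per Ensembl gene, whole numbers with no normalization. TopHat, HTSeq and DESeq2 on GRCm38 (mm10) are named without versions or settings, per the submitters' processing notes. The annotation release used for counting, and whether strand was used, are not given in the sources used here. No counted gene overlapped a member in Gencode M21, the source of symbols and coordinates. Entries naming no gene held 43.16 to 50.43% of listed reads and were left out.

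The tests were run with edgeR 4.0.16 in R 4.3.3, using filterByExpr, TMM scaling and the robust quasi-likelihood F test, two-sided, on all genes. The threshold was 0.05 after Benjamini-Hochberg adjustment. Each fit held the 6 libraries of its comparison, or all 12 for the difference of the CKO effect. SE is the log2 fold change over the square root of F. CPM uses TMM-scaled totals. Few counts limit the precision of Cdkn1a, Phlda3 and Eda2r, and count floors cover counting error only. Alternatives were DESeq2 1.42.0, limma-voom (limma 3.58.1), other size factors, no filter, no robust estimates, a shared fit, a replicate block and leaving out libraries. Scripts were tested on simulated data, with changes set only in genes of higher counts than Cdkn1a and Phlda3. The simulation therefore does not show how well changes in these genes would be found.

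The replicate number marks the mouse in both MZ and FO libraries, whose deviations from group means correlated at 0.547 to 0.777. FO CKO and FO Control libraries of a number, which are different mice, correlated at 0.135, 0.398 and 0.379. MZ CKO and MZ Control libraries of a number correlated at -0.108, 0.429 and 0.41. In both genotype comparisons the replicate block is thus a matching of different mice that the labels do not give. The labels do not say whether mice were littermates. Without the block, the fits of the difference of the CKO effect took both libraries of a mouse as independent, as did those of MZ over FO. Their p-values measure the spread between these libraries, not that between mice.

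The members and gene lists were chosen with earlier results of these data known. The rule named all 9 members, of which Eda2r could not be tested. Of the lists of genes upstream of p53, further targets and cell cycle genes, it named up to 4 members that passed in a planned comparison, or up to 2 with the smallest p where none did, with Trp53 and Mdm4 always. Marker lists are given as sums and counts. Of the 15 lists, those of B, FO B, MZ B, T, NK, dendritic, plasma and B-1 cells, macrophages, neutrophils and erythroid cells with platelets are markers.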

Additional observations from a re-analysis of the deposited data

How the results depend on the processing

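Members called between genotypes stayed at 0 under the alternatives run, in FO, in MZ, in both summed and in the difference of the CKO effect. DESeq2 gave no adjusted p for Cdkn1a and Phlda3 in FO and in MZ, so its 0 does not bear on them. Genes called in FO (16) became 140 with no low-count filter, 39 with DESeq2 and 25 with the replicate block, and 11 to 31 with libraries left out (26 with only mice 1505 to 1514, without replicate 3 of both groups). Genes called in MZ (14) became 95 with no filter, 38 with DESeq2, 57 with the replicate block and 7 with limma-voom or without robust estimates, and 5 to 34 with libraries left out. In the MZ genotype comparison the same-number correlations were -0.108, 0.429 and 0.41, and 2 of 3 numbers were the best match. The block joined different mice there, as in FO, and it changed no member's call. With FO and MZ summed, genes called (16) ranged from 6 to 35. Between MZ and FO, the replicate block gave 6333 genes in CKO and 7805 in Control mice, and 4 for the difference of the CKO effect; it changed no member's call other than those given above. Leaving out libraries gave 0 to 3 members and 1898 to 2884 genes in CKO mice, and 2 to 3 members in Control mice. The cause of these shifts was not tested.

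Directions turned for members near 0 when libraries were left out, and for Cdkn1a in the difference of the CKO effect (0.61 in the fit reported). The log2 fold change ranged in FO from -0.18 to 0.02 for Trp53inp1, -0.02 to 0.12 for Sesn1 and -0.01 to 0.15 for Bax. In MZ it ranged from -0.17 to 0.02 for Ccng1, -0.02 to 0.06 for Trp53inp1, -0.03 to 0.03 for Zmat3 and -0.01 to 0.17 for Sesn1. The difference of the CKO effect ranged from -0.10 to 0.88 for Cdkn1a, -0.11 to 0.12 for Ccng1, -0.05 to 0.13 for Sesn1 and -0.06 to 0.06 for Bax. For Ccng1 it was 0.00 in the fit reported, -0.01 with no filter and 0.00 with limma-voom and with the block, and for Bax 0.01 with DESeq2 and its size factors, against -0.01. Over 6 mice Phlda3 ranged from -0.10 to 0.24, and summed per mouse Mdm2 ranged from -0.03 to 0.00 and Trp53inp1 from -0.10 to 0.02. Of 696 alternatives for single members, 627 kept direction and call, 4 of them the DESeq2 values with no adjusted p. Levels of Cdkn1a and Phlda3 rest on 8 to 39 counts per library, which limits their precision.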
